A study of Mus musculus with 7 samples.

Results

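The mRNA of livers collected around dawn was compared with that of livers collected around dusk. The dawn side held the arrays of ZT22, ZT02 and ZT26, where zeitgeber time (ZT) counts hours from lights on and ZT26 is the clock hour of ZT02 on the next day. The dusk side held ZT10, ZT14 and ZT18, and the array of ZT06 stood on neither side, so 6 of the 7 arrays of the series were used. The sides were set by time of day alone. All arrays came from untreated male C57/BL6 mice, 9 to 11 weeks old before they spent 2 weeks in cycles of 12 h light and 12 h dark with free food and then 7 days in the same cycle with food between ZT12 and ZT24. Livers were perfused with phosphate-buffered saline, and each array received 1 pool of RNA from 5 livers. No time point has a second array, so the spread within a side is spread between hours, and meal times and the light cycle cannot be told apart. The hepatocyte gene Alb stood between 13.98 and 14.08 (log2) on the 6 arrays, which fits the labelled tissue.

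In mammalian cells the transcription factors Bmal1 (gene symbol Arntl) and Clock bind E-box elements and activate the Per and Cry genes, whose proteins repress them in turn. The receptors encoded by Nr1d1 and Nr1d2 repress Arntl through ROR elements, and the proteins of Dbp, Tef and Hlf pass the rhythm on through D-box elements. In liver this clock meets the cycle of feeding and fasting, so that sterol, lipid, sugar and bile acid genes have preferred hours.

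The promoters of 5 genes are shown because they carry the elements of this circuit and the genes differed widely between the sides. Each runs 5′ to 3′ on the gene's strand from 250 bases before to 50 bases after the annotated start in RefSeq (build GRCm38.p6), and capitals mark matches to the E-box CACGTG, the D-box TTATGNAA or, in Arntl, the ROR element. Ciart (chr3:95882179-95882478, minus strand) holds 3 E-boxes, Pfkfb3 (chr2:11502041-11502340, minus strand) holds 1, Per1 (chr11:69098699-69098998, plus strand) holds an E-box and, nearer the start, a D-box, Per3 (chr4:151044616-151044915, minus strand) holds 2 D-boxes, and Arntl (chr7:113207261-113207560, plus strand) holds a ROR element after the start. The first 4 genes were higher at dusk and the last was higher at dawn.
Ciart: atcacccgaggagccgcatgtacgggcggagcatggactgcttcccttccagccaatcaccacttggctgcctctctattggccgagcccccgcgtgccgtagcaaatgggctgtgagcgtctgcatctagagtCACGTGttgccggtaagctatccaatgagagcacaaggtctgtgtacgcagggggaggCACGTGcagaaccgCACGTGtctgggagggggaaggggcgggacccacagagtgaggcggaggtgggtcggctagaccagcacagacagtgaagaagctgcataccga
Pfkfb3: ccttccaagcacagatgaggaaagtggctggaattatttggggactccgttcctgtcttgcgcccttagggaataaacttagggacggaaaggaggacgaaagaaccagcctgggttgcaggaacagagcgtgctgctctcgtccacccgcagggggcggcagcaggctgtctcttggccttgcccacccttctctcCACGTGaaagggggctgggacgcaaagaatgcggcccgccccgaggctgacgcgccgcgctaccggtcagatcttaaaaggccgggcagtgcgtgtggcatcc
Per1: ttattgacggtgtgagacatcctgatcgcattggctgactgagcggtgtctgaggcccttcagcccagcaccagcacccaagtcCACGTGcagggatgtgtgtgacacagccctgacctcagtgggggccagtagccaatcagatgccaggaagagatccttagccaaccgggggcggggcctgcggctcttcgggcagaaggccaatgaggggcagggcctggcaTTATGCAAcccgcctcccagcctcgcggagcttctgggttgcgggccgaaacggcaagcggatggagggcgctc
Per3: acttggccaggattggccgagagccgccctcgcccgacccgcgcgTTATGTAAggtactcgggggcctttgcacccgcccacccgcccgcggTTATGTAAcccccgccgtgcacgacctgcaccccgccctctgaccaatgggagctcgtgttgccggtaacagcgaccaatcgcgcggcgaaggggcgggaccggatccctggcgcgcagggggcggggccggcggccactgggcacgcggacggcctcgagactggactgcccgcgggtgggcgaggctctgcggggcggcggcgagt
Arntl: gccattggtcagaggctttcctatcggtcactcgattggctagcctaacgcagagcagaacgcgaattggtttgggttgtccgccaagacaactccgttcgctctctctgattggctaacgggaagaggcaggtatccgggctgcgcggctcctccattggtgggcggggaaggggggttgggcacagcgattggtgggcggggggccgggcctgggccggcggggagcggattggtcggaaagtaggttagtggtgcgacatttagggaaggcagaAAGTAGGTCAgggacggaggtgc

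The same letters were searched on both strands of every RefSeq promoter of that length, and the E-box reads the same on both. Genes were taken as apart when every array of one side exceeded every array of the other and the means differed by at least 0.5 (log2). Among the 97 dusk-high genes of this kind with a promoter entry, 24 (24.7%) held an E-box and 10 (10.3%) a D-box. The 109 dawn-high ones held an E-box in 8 cases (7.34%) and a D-box in 6 (5.5%). The tested genes with an entry, 8781 in number, held an E-box in 12.0% and a D-box in 2.62%, against 8.09% and 3.99% of the 27025 genes of the promoter table. A match to the strict ROR element stood in 1 of the 109 dawn-high promoters, that of Arntl, in none of the 97 dusk-high ones and in 0.194% of tested genes. Looser forms of the element were neither counted nor marked, in Arntl or elsewhere. These are counts of letters, and no binding was measured.

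The comparison took in 12076 probe sets, those that name 1 gene and average over 85 units once the log is undone, and they stand for 10966 genes. No probe set passed an adjusted p of 0.05 in limma, and the lowest adjusted p was 0.261. At an unadjusted p under 0.05 there were 1513 probe sets (12.5%), of which 755 (6.25%) were higher at dawn and 758 (6.28%) at dusk. That count was 945 without ZT02, 826 without ZT26 and 797 without ZT14. An exact permutation test of 3 arrays against 3 cannot go below p = 0.1 for a single gene. Levels and differences are therefore given below as measured, with no gene called from all 6 arrays.

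Leaving out ZT18 changed that outcome. With ZT10 and ZT14 alone on the dusk side, 143 probe sets of 129 genes passed limma's adjusted p of 0.05, 96 of them higher at dawn and 47 higher at dusk. Without ZT10 the lowest adjusted p was 0.0553, and none passed when any other single array was left out. These adjusted p values make no allowance for leaving out each array in turn, and the hours of a side stand in for replicates. They are given below as description and do not call a gene. The dusk side was the more varied one, with a median standard deviation (SD) of 0.098 per gene against 0.0739 at dawn. The SD was larger at dusk in 62.2% of genes. The sides did not cover like spans of time. ZT02 and ZT26 share a clock hour, while the dusk arrays ran from ZT10 to ZT18. A larger SD at dusk, and more genes passing once ZT18 is left out, cannot be told apart from that design. Passing without ZT18 is stated below for some of these genes only, so a gene without that remark may also have passed.

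Most genes differed little. The median difference, dawn mean minus dusk mean, was -0.0014 over the 10966 genes with quartiles of -0.08 and 0.08, and the median size of the difference was 0.08. ZT02 and ZT26, 1 day apart at the same clock hour, differed by a median of 0.09. That value is between single arrays, which vary more than means of a side, so it cannot be set against the 0.08. Between single arrays of opposite sides the median size was 0.0995 for ZT22 minus ZT10 and 0.126 for ZT02 minus ZT14. Every dawn array lay above every dusk array for 855 genes (7.8%), and the reverse held for 877 (8%). Of these genes 139 (1.27%) were apart at dawn and 122 (1.11%) at dusk. Counted by probe set, 922 (7.63%) and 962 (7.97%) did not overlap, and 144 (1.19%) and 134 (1.11%) were apart. Counts of list members without overlap are read below against the 7.8% and 8% of all genes. A difference of at least 1 in log2 with no overlap was found for 31 genes (0.283%) at dawn and 30 (0.274%) at dusk.

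Clock genes were among those with the widest differences. In this and the following paragraphs log2 levels are listed for ZT22, ZT02 and ZT26 on the dawn side and for ZT10, ZT14 and ZT18 on the dusk side, and a difference is dawn minus dusk with its standard error. Arntl stood at 8.81, 8.96 and 8.94 against 5.29, 6.66 and 8.48, a difference of 2.09 ± 0.76 (limma adjusted p = 0.385). Its dawn arrays were nearly level, whereas the dusk arrays climbed from the lowest point of the series, 39.2 units and below the 43 units that the study took as background, to just below the dawn values. Clock, the partner of Arntl, stood at 10.10, 10.14 and 10.03 against 8.83, 9.55 and 9.96 (0.64 ± 0.28). Rora, which activates Arntl, overlapped between the sides with a difference of 0.12. Arntl and Clock were thus 2 of the 3 activators tested that did not overlap.

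Of the 10 repressors, 5 lay higher on every dusk array, against 8% of all genes, and 1 on every dawn array, against 7.8%, and the median difference was -1.19. Ciart, which represses Arntl and Clock, stood at 6.81, 5.09 and 5.35 against 9.77, 9.61 and 7.67. The difference was -3.27 ± 0.71 (adjusted p = 0.264). ZT02 and ZT26, at 34.2 and 40.8 units, were below the background of 43 units, so the low end of this difference was not resolved. A further Ciart probe set passed without ZT18 (-3.79, adjusted p = 0.0233). Per2 stood at 8.46, 7.08 and 7.29 against 9.21, 10.02 and 9.79 (-2.06 ± 0.41). The other period genes kept the same order of sides, but their highest array was ZT10 where that of Per2 was ZT14. Per3 stood at 7.09, 6.24 and 6.05 against 9.59, 8.62 and 8.02 (-2.28 ± 0.46), and Per1 at 7.98, 6.82 and 6.37 against 9.39, 8.73 and 8.18 (-1.71 ± 0.49). In all of the period genes ZT22 was the dawn array closest to dusk.

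Bhlhe40 (Dec1), a repressor at E-boxes, was lower at dawn by a difference of -1.16 ± 0.30. Nfil3, which competes for D-boxes, ran the other way, with 8.98, 9.36 and 9.33 against 7.16, 8.003 and 8.71 (1.26 ± 0.38). Both groups of arrays were mixed for Nr1d1 and Cry1. Nr1d1 stood at 7.51, 10.52 and 10.32 against 11.17, 9.55 and 7.21, so that each side held both low and high arrays, and its difference of 0.14 ± 1.24 turned to -0.39 without ZT02, -0.29 without ZT26 and -0.91 without ZT18. Cry1 had its high arrays on both sides, 8.92 at ZT18 and 8.91 at ZT22, and its difference of 0.13 ± 0.49 turned to -0.29 without ZT10 and -0.22 without ZT22. Nr1d2 and Cry2 had differences of -1.22 and -0.50 with overlapping sides.

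**Figure D1:**
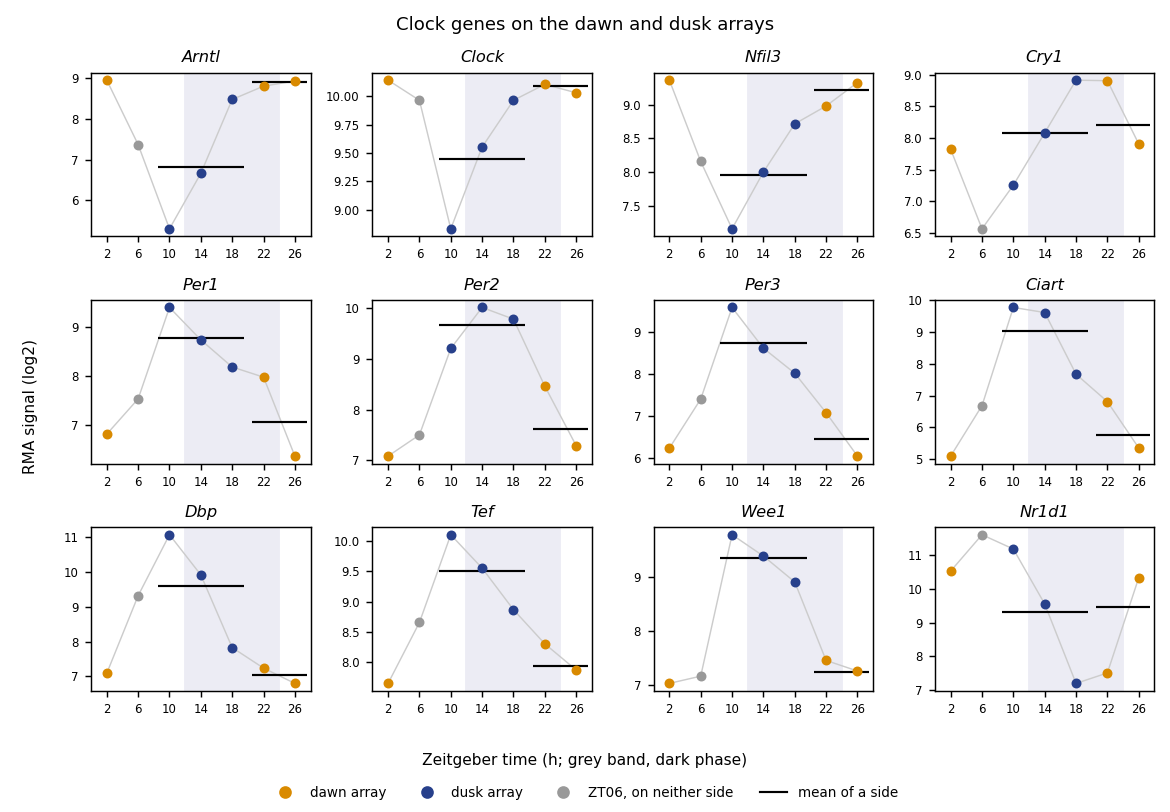
Log2 signal of 12 clock genes on each array (x axis, zeitgeber time in hours; y axis, RMA signal on the log2 scale, with its own range in each panel), with dawn arrays in orange, dusk arrays in blue, ZT06 in grey and a black line at the mean of each side (n = 3 arrays). Arntl, Clock and Nfil3 sit higher at dawn and the period genes, Ciart, Dbp, Tef and Wee1 higher at dusk, while Nr1d1 and Cry1 have high and low arrays on both sides.

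Of 10 clock output genes, 6 were higher on every dusk array (8% of all genes) and 1, the vasopressin receptor gene Avpr1a, on every dawn array, with a median difference of -1.21. Dbp, a D-box activator, stood at 7.24, 7.09 and 6.80 against 11.08, 9.92 and 7.83 (-2.57 ± 0.79), and passed without ZT18 (-3.46, adjusted p = 0.0384). Wee1, a kinase that holds back mitosis, stood at 7.45, 7.02 and 7.25 against 9.79, 9.40 and 8.91. Its difference of -2.12 ± 0.24 was large for its error, and it too passed without ZT18 (-2.35, adjusted p = 0.0276). Usp2, a deubiquitinase, stood at 8.81, 6.66 and 6.87 against 10.72, 10.40 and 9.40 (-2.73 ± 0.65). The remaining dusk-high genes were Tef (-1.57), Noct (-1.64), a phosphatase of nicotinamide cofactors once taken for a deadenylase, and Hlf (-0.84). Klf10, Klf9 and Klf15, zinc-finger factors, overlapped between the sides, at -0.73, 0.26 and -0.20.

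Of the 40 gene lists, 36 had at least 5 tested genes. The median difference lay within 0.2 of 0 in 28 of these lists, above 0.2 in 4 and below -0.2 in 4. The 4 higher at dawn were antigen presentation and lymphocyte markers (0.49), Kupffer cell markers (0.40), cholesterol synthesis (0.32) and tubulins and actins (0.22). The 4 lower were clock output genes, clock repressors, triglyceride and lipid droplet genes (-0.22) and glucocorticoid-induced genes (-0.22). No list was tested as a set.

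**Figure D2:**
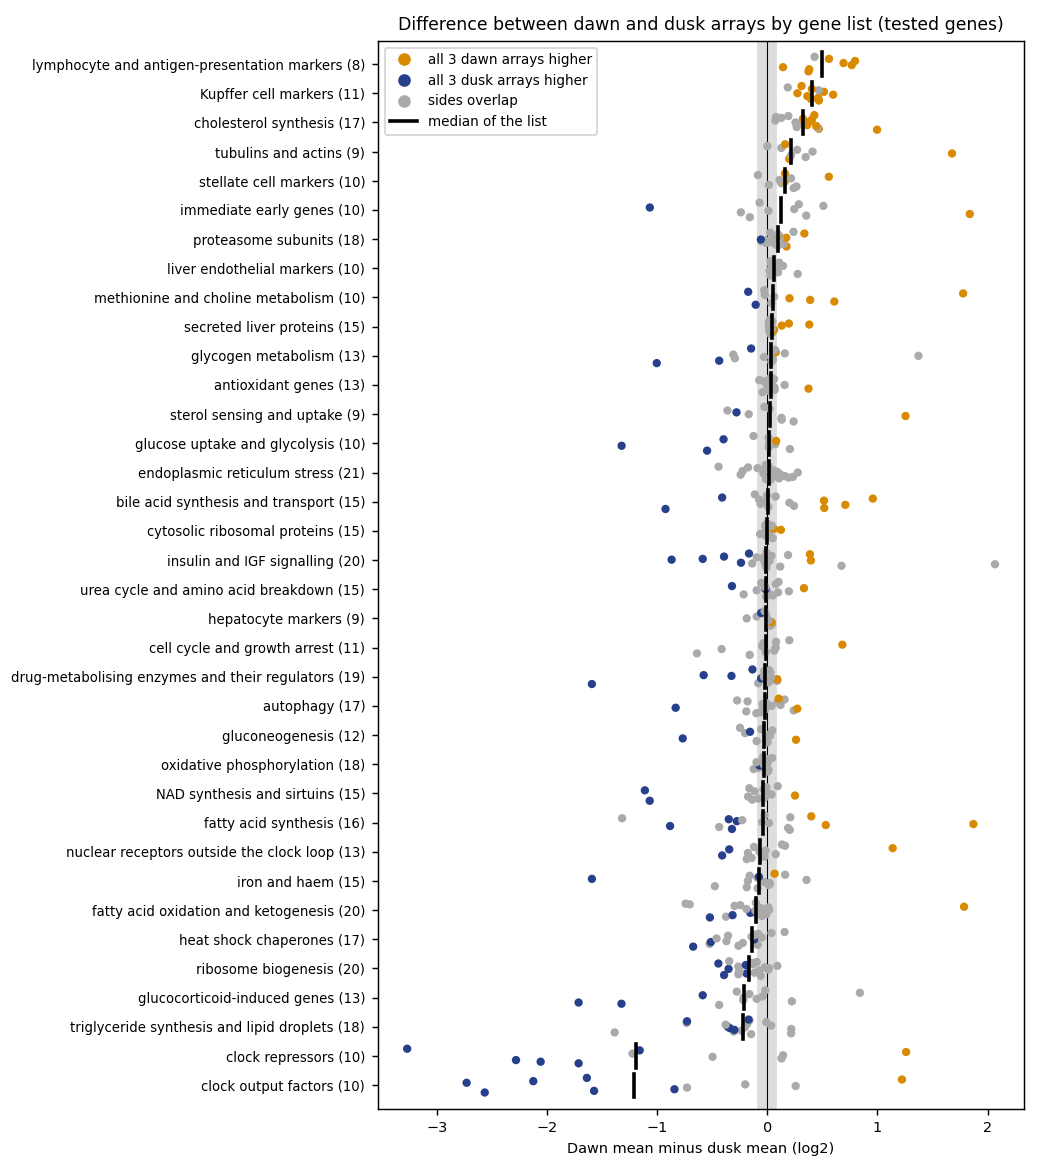
Difference between the dawn and dusk means (x axis, log2) for every tested gene of the 36 lists with at least 5 tested genes, 1 row per list with the number of tested genes in brackets, black bars at list medians and a grey band from -0.08 to 0.08 for the quartiles of all tested genes. Most lists centre near 0. The medians of the lymphocyte and antigen presentation, Kupffer and cholesterol lists lie furthest to the right and those of both clock lists furthest to the left. Those of hepatocyte and endothelial markers lie within the grey band.

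All 17 tested genes of cholesterol synthesis had the higher mean at dawn, with a median of 0.32, and 8 did not overlap, against the 7.8% of all genes given above. Hmgcs1, an early enzyme of the pathway, stood at 11.60, 11.87 and 11.96 against 10.98, 10.02 and 11.45 (1.00 ± 0.36). The array of ZT14 was the lowest of the 7 for 14 of the 17 genes. The other genes that did not overlap were Mvk (0.47), the mevalonate kinase, and Idi1, Fdps, Cyp51, Msmo1, Nsdhl and Dhcr7, with differences from 0.32 to 0.44. ZT18 was the highest array for 5 genes, among them Sqle, the squalene epoxidase, at 10.47 against 10.13 to 10.26 at dawn.

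Insig2, a membrane protein that retains the sterol regulators in the endoplasmic reticulum, had the widest difference of the sterol genes. It stood at 12.09, 12.25 and 12.09 against 10.40, 10.79 and 11.48 (1.25 ± 0.27), and passed without ZT18 (1.55, adjusted p = 0.0309). Insig1, its relative, had a difference of 0.13 and overlapped. The sterol exporter gene Abcg5 was highest at ZT10 (12.04) and lowest at ZT18 (10.46), both on the dusk side, so its mean difference of -0.36 describes neither.

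Genes of fatty acid synthesis had members on both sides. Of 16, 3 were higher on every dawn array and 4 on every dusk array, where 7.8% and 8% of all genes were. Elovl3, an elongase of very long chains, stood at 13.04, 12.96 and 12.94 against 10.51, 10.50 and 12.32 (1.87 ± 0.50). Without ZT18 its difference was 2.48 with the lowest adjusted p of the named genes (0.00152). Elovl6, which extends palmitate, ran opposite, with 10.73, 10.54 and 10.72 against 11.12, 11.72 and 11.81 (-0.88 ± 0.19). Elovl5 and Acss2, which makes acetyl-CoA from acetate, were higher at dawn by 0.53 and 0.40. Srebf1, the regulator of lipid synthesis, Acaca, the first committed enzyme, and the desaturase gene Fads2 were lower at dawn at -0.35, -0.32 and -0.28. Thrsp, which responds to carbohydrate feeding, had a difference of -1.32 with overlapping sides, since ZT22 (11.54) exceeded ZT10 (11.45). Scd1, the stearoyl-CoA desaturase, stood between 13.60 and 13.66 on the 6 arrays.

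Genes of triglyceride synthesis and lipid droplets leaned to dusk, with the lower mean at dawn in 15 of 18 and 5 that did not overlap, all at dusk, against 8% of all genes. These were Mgll (-0.73 ± 0.19), a monoglyceride lipase, Cidec, Plin4 and Fitm1, which coat or form droplets (-0.36, -0.34 and -0.17), and Dgat2, which makes triglyceride. Dgat2 stood at 12.47, 12.49 and 12.46 against 12.83, 12.80 and 12.69 (-0.30 ± 0.05), a small difference that was several times its error. Lpin1, a phosphatidate phosphatase, stood at 9.66, 9.24 and 9.27 against 11.28, 11.42 and 9.64. Its ZT18 array lay among the dawn arrays, and its difference of -1.39 ± 0.49 became -1.96 without ZT18 (adjusted p = 0.0276).

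Bile acid genes held opposite members within one pathway. Cyp7a1, the rate-limiting enzyme of the classical route, stood at 11.69, 11.26 and 11.26 against 12.10, 12.52 and 12.37 (-0.92 ± 0.16), and Nr0b2, which encodes its repressor SHP, at 9.87, 10.18 and 10.10 against 9.16, 8.73 and 9.39 (0.96 ± 0.18). Both sides were clear of each other for both genes, in opposite directions. Hsd3b7 and Cyp8b1, later enzymes of the route, and Abcb11, the bile salt export pump, were higher on every dawn array at 0.71, 0.52 and 0.51. Nr1h4, the bile acid receptor, was lower on each (-0.41 ± 0.07). The uptake carrier gene Slc10a1 and the enzyme gene Cyp27a1 had differences of -0.07 and 0.01.

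Neither carbohydrate list lay to one side as a whole. Glycogen metabolism had the higher mean at dawn in 7 of 13 genes (median 0.04), and glucose uptake and glycolysis in 6 of 10 (median 0.01). In each list 3 genes were higher on every dusk array and 1 on every dawn array, against 8% and 7.8% of all genes. The dawn-high gene was Phkb, a subunit of phosphorylase kinase (0.08), in the glycogen list. In the glycolysis list it was Pgam1, a glycolytic mutase (0.08). Gys2, the liver glycogen synthase, stood at 11.54, 11.38 and 11.46 against 12.61, 12.60 and 12.18, a difference of -1.004 ± 0.13 that was wide against a narrow spread, and it passed without ZT18 (-1.15, adjusted p = 0.0189). Gbe1, the branching enzyme, followed at -0.44 ± 0.08. Ppp1r3c, which targets a phosphatase to glycogen, ran the other way at 10.86, 10.45 and 10.26 against 8.25, 8.84 and 10.36 (1.37 ± 0.54), with ZT18 inside the dawn range. Slc2a2, the hepatic glucose transporter, was lower at dawn (-0.55 ± 0.13), as were Pklr, the liver pyruvate kinase (-0.40), and Pfkfb3, which makes an activator of glycolysis. Pfkfb3, whose promoter is printed above, stood at 7.16, 6.61 and 6.47 against 8.56, 8.32 and 7.33 (-1.32 ± 0.36). In gluconeogenesis Slc37a4, the glucose-6-phosphate carrier, was lower at dawn at 11.80, 11.42 and 11.53 against 12.25, 12.51 and 12.29 (-0.77 ± 0.12), while G6pc, the phosphatase it serves, was higher on each dawn array by 0.26. Pck1 ranged from 11.79 at ZT18 to 13.15 at ZT10 and its means differed by 0.00 ± 0.36.

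Fatty acid oxidation and ketone body genes had the lower mean at dawn in 17 of 20, with a median of -0.11. Without overlap were 3 of the 20 at dusk and 1 at dawn, not far from the 8% and 7.8% of all genes. Ppara, the fasting receptor, stood at 10.81, 10.87 and 10.94 against 11.74, 11.41 and 11.03 (-0.52 ± 0.18). Slc25a20, the carnitine carrier, and Acadl, a long-chain dehydrogenase, were lower by smaller amounts (-0.32 and -0.15). Pdk4, which shuts off pyruvate dehydrogenase, was the exception, with 8.92, 9.33 and 9.60 against 6.83, 7.05 and 8.61 (1.79 ± 0.49). It passed without ZT18 (2.34, adjusted p = 0.0347). Cpt1a, the entry step of mitochondrial oxidation, had a difference of -0.38 and overlapped, since ZT18 (11.61) lay within the dawn range.

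**Figure D3:**
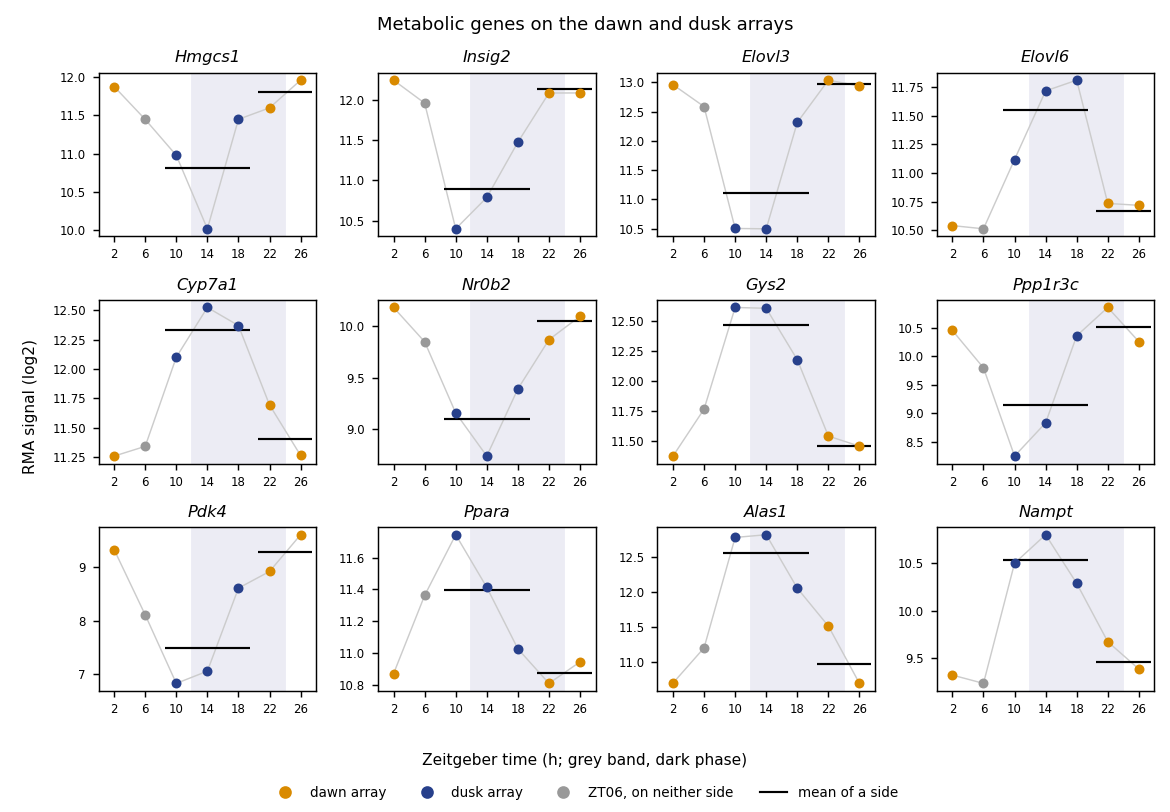
Log2 signal of 12 metabolic genes on each array (x axis, zeitgeber time in hours; y axis, RMA signal on the log2 scale, with its own range in each panel), with dawn arrays in orange, dusk arrays in blue, ZT06 in grey and a black line at the mean of each side (n = 3 arrays). Hmgcs1, Insig2, Elovl3, Nr0b2 and Pdk4 are higher on every dawn array, Elovl6, Cyp7a1, Gys2, Ppara, Alas1 and Nampt on every dusk array, and Ppp1r3c overlaps at ZT18.

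Among cofactor genes, the enzymes that salvage nicotinamide and its riboside stood out from the rest of their list. Nampt, the rate-limiting salvage enzyme, stood at 9.67, 9.32 and 9.39 against 10.50, 10.80 and 10.29 (-1.07 ± 0.16). Nmrk1, the riboside kinase, stood at 8.90, 8.39 and 8.63 against 9.92, 9.75 and 9.60 (-1.11 ± 0.15). The 15 genes of the list had a median of -0.04, and of the others only Qprt, of the route from tryptophan, did not overlap (0.25). Sirt1, an NAD-dependent deacetylase, stood between 8.24 and 8.35 on the 6 arrays. Alas1, the first enzyme of haem synthesis, stood at 11.51, 10.69 and 10.69 against 12.79, 12.82 and 12.06 (-1.59 ± 0.31), while Urod and Fech, later enzymes, differed by -0.08 and -0.16. In choline metabolism Chka, the choline kinase, was higher at dawn at 10.10, 10.22 and 10.34 against 7.24, 8.40 and 9.68 (1.78 ± 0.58). Cbs, Cth and Bhmt, which dispose of homocysteine, were higher on each dawn array by 0.61, 0.39 and 0.20. Mat1a and Pcyt1a, of the same methionine and choline list, ran the other way and were higher on every dusk array. The 10 genes of that list had a median of 0.05. Without overlap were 4 at dawn and 2 at dusk, against 7.8% and 8% of all genes.

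The 19 genes of drug metabolism had a median of -0.02. Without overlap were 5 at dusk and 1 at dawn, against 8% and 7.8% of all genes. The widest difference was that of Alas1, given above, whose haem goes into cytochromes P450. Nr1i3 and Nr1i2, the xenobiotic receptors CAR and PXR, were lower on every dawn array (-0.58 ± 0.15 and -0.33 ± 0.10), whereas Cyp3a11, Cyp2c29 and Cyp1a2, drug-oxidising enzymes, had differences of 0.03, 0.05 and 0.00. The enzyme genes Cyp2e1, Sult1a1 and Cyp2c50 did not overlap but differed by only -0.06, -0.13 and 0.09. Ppard, a lipid-sensing receptor, had the widest difference of the other nuclear receptors, at 9.92, 9.64 and 9.76 against 8.34, 8.37 and 9.19 (1.14 ± 0.24). It passed without ZT18 (1.42, adjusted p = 0.0233). The glucocorticoid receptor gene Nr3c1 differed by -0.07. Of 13 glucocorticoid-induced genes 11 had the lower mean at dawn, and 3 did not overlap, against 8% of all genes. These were Per1, Fkbp5, a chaperone of steroid receptors (-1.32 ± 0.35), and Pik3r1, a regulatory subunit of phosphoinositide kinase (-0.59 ± 0.15). The list mean was 9.93, 9.63 and 9.33 against 9.89, 10.08 and 9.85, so ZT22 lay within the dusk range. ZT26 was the lowest array for 8 genes. With 1 array left out the list median ran from -0.27 to -0.09. Tat, a classical target, differed by -0.10.

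Insulin and growth factor genes had a median of -0.01 over 20 genes. Socs2 and Sesn3 were higher on every dawn array, 2 of 20 and near the 7.8% of all genes. Cish, Pik3r1, Foxo3, Igfbp4 and Trib1 were higher on every dusk array, 5 of 20 against 8% of all genes. Igfbp1, which binds IGFs and is shut off by insulin, had the widest difference (2.07 ± 0.91) but split the dawn side, at 8.16, 10.91 and 10.68 against 9.12, 6.87 and 7.54. Socs2 and Cish, both induced by growth hormone signalling, differed in opposite directions (0.40 ± 0.09 and -0.87 ± 0.24). Foxo3, a factor restrained by insulin, was lower on each dawn array (-0.39 ± 0.09), and Igf1 stood between 12.19 and 12.23.

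Heat shock chaperones had the lower mean at dawn in 15 of 17, and Hspa1a, Dnajb1 and Hspd1 did not overlap, 3 of 17 against 8% of all genes. None of the 17 had an unadjusted p under 0.05 in limma (0 in either direction). The dusk arrays differed among themselves. The mean over the list was 9.65, 9.63 and 9.62 at dawn against 9.32, 10.21 and 10.06 at dusk. ZT10 was the lowest array for 9 genes, and ZT14 or ZT18 the highest for 16. The list median of -0.14 became -0.53 without ZT10. Hspa1a, the inducible Hsp70, stood at 6.31, 6.62 and 6.43 against 6.70, 7.98 and 6.68 (-0.67 ± 0.36), so that its difference rested on ZT14, without which it was -0.24. Of the cold-inducible genes Rbm3 was lower on each dawn array (-0.49 ± 0.11) on all 3 of its probe sets, and Cirbp overlapped (0.44 ± 0.25). Genes of the endoplasmic reticulum stress response had none without overlap among 21, with the lowest array at ZT10 for 15 of them. Sdf2l1, one of its chaperone cofactors, had a difference of 0.28 that turned to -0.13 without ZT10.

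Ribosome biogenesis genes leaned to dusk, with the lower mean at dawn in 17 of 20 and a median of -0.17. Of the 20, 5 did not overlap, all at dusk, against 8% of all genes. Gnl3, a nucleolar GTPase, stood at 8.17, 7.88 and 7.94 against 8.54, 8.60 and 8.19 (-0.44 ± 0.13), and Nop56, a core protein of snoRNPs, at 9.23, 8.96 and 9.13 against 9.27, 9.91 and 9.31 (-0.39 ± 0.19). The highest array was ZT14 for 14 of the 20. The other genes without overlap were Rrn3, an initiation factor of RNA polymerase I, nucleolin (Ncl) and Rrp9. The 15 ribosomal protein genes themselves had a median of 0.00 and the 18 oxidative phosphorylation genes one of -0.03. Proteasome subunits had the higher mean at dawn in 14 of 18, led by Psmd11 at 10.36, 10.38 and 10.34 against 10.04, 9.93 and 10.09 (0.34 ± 0.05). Without overlap were 4 of the 18 at dawn and 1, Psmb6, at dusk, against 7.8% and 8% of all genes. The array left out, ZT06, was the highest for 11 of the 18, Psmd11 (10.46) among them. The mean over the proteasome list was 10.51 at ZT06, against 10.37, 10.42 and 10.42 on the dawn arrays. Secreted proteins had the higher mean at dawn in all 15, by a median of 0.04, and 5 did not overlap, against 7.8% of all genes. These were the fibrinogen chains Fga, Fgg and Fgb (0.38, 0.20 and 0.13) and the apolipoprotein genes Apoa1 and Apoc3 (0.04 and 0.06). A further Fga probe set, of lower signal, had a difference of 0.77, also without overlap.

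Tubulins and actins had a median of 0.22, carried furthest by Tubb2a, a beta tubulin, at 10.04, 9.90 and 10.17 against 7.20, 8.04 and 9.84 (1.68 ± 0.65). It passed without ZT18 (2.42, adjusted p = 0.0400). Tuba1a and Actb were the other genes that did not overlap, at 0.20 and 0.16, and Tubg1 had a difference of 0.00. ZT10 was the lowest array for 8 of the 9. Among immediate early genes Egr1, a zinc-finger factor, stood at 7.90, 9.32 and 9.40 against 7.85, 6.23 and 7.02 (1.84 ± 0.56), with ZT22 and ZT10 nearly touching. Myc was lower at dawn, at 7.73, 7.71 and 7.89 against 9.37, 8.91 and 8.26 (-1.07 ± 0.27), and passed without ZT18 (-1.36, adjusted p = 0.0427). Bnip3, a mitophagy receptor, was lower at dawn on both of its probe sets (-0.83 and -0.85), and Sqstm1, a cargo receptor of autophagy, was higher (0.27 ± 0.07). Of 11 cell cycle genes only Btg1, which restrains growth, did not overlap (0.68 ± 0.18). The 15 urea cycle and amino acid genes and the 13 antioxidant genes had medians of -0.01 and 0.03. Their widest differences were those of Hal, which breaks down histidine (0.33), and Gclc, of glutathione synthesis (0.37). In the first of these lists Prodh (-0.32) and Hpd ran the other way and were higher on every dusk array.

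Markers of immune cells of the liver were higher at dawn. All 11 tested Kupffer cell markers had the higher dawn mean, 9 without overlap against 7.8% of all genes, and their median was 0.40. Their summed signal was 8295 to 9318 units at dawn against 5941 to 7508 at dusk. Lyz2, lysozyme of macrophages, stood at 10.08, 10.15 and 10.13 against 9.48, 9.33 and 9.75 (0.60 ± 0.11) and passed without ZT18 (0.71, adjusted p = 0.0327). The complement gene C1qb stood at 10.57, 10.42 and 10.60 against 9.79, 10.02 and 10.23 (0.51 ± 0.12). Of the list only Marco was below 85 units. Fewer cells of a type and less RNA per cell cannot be told apart in these whole-liver pools.

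The 8 tested lymphocyte and antigen presentation markers also had the higher dawn mean, 7 without overlap, with a median of 0.49 that was 0.67 without ZT18. H2-Ab1, a chain of MHC class II, stood at 10.03, 9.71 and 10.05 against 9.04, 8.97 and 9.39 (0.80 ± 0.14). Cd74, the invariant chain of class II, stood at 10.08, 9.82 and 10.05 against 9.01, 9.08 and 9.55 (0.77 ± 0.16) and passed without ZT18 (0.94, adjusted p = 0.0371). Of the defining T and B cell genes Cd3e, Cd4 and Cd79b were tested and were higher on every dawn array, by 0.37, 0.38 and 0.14. They were near the minimum of 85 units, with means over the 7 arrays of 118, 87.0 and 97.9 units. That mean includes the dawn arrays, so the minimum itself favoured the entry of dawn-high genes so close to it, Cd4 above all. Their place among the 7 without overlap is therefore no separate support. Their further genes Cd3g, Cd8a, Cd79a and Ms4a1 and the killer cell gene Nkg7 were below 85 units. The summed signal of the list was 4065 to 4604 units at dawn, 2481 to 3414 at dusk and 2400 at ZT06, and that of Kupffer markers was 7560 at ZT06.

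Markers of hepatocytes, endothelial and stellate cells had smaller medians. Hepatocyte markers summed to 109393 to 110762 units at dawn and 109052 to 112725 at dusk, with a median difference of -0.01. Endothelial markers had the higher dawn mean in all 10, but with a median of 0.06 and none without overlap. Their sums overlapped (7141 to 8917 against 7079 to 7633). Stellate cell markers had the higher dawn mean in 9 of 10 and a median of 0.16, with Col1a1, Rgs5 and Pdgfrb higher on every dawn array. The list summed to 8485 to 8976 units at dawn and 7531 to 8463 at dusk, so its sums were narrowly clear of each other. Pdgfrb, a growth factor receptor, stood at 8.32, 8.32 and 8.58 against 7.90, 7.72 and 7.92 (0.56 ± 0.09). Of the bile duct and red cell markers only Sox9 (0.68) and Alas2 (0.16) entered the comparison. The part of these cell types in the differences of other genes was not tested.

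**Figure D4:**
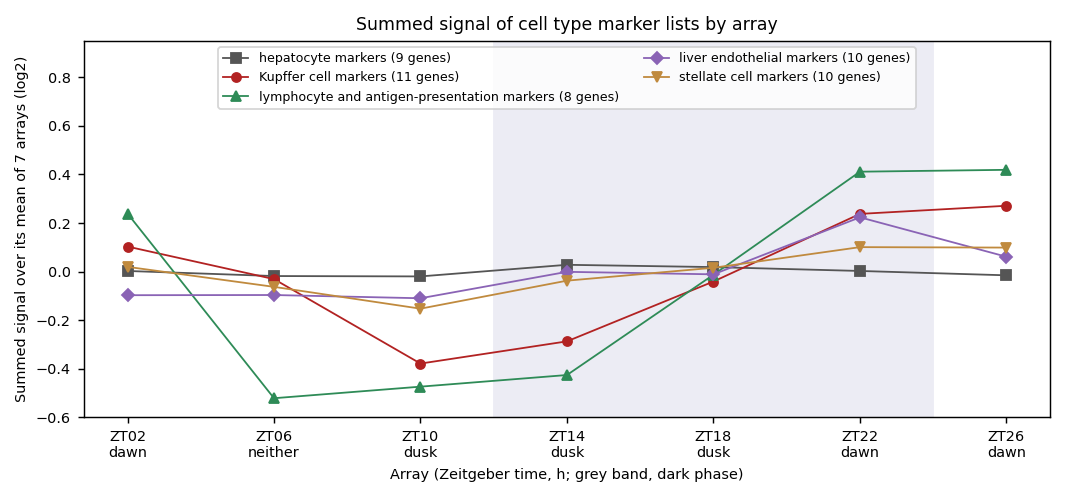
Summed signal of 5 lists of cell type markers on each array, divided by the mean of the 7 arrays and shown as log2 (y axis) against the arrays in order of zeitgeber time (x axis), 1 line per list. Kupffer, lymphocyte and antigen presentation markers are higher on the 3 dawn arrays than on the 3 dusk arrays, as are stellate markers by a narrow margin. Endothelial markers overlap between the sides, and hepatocyte markers stay level.

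Several of the widest differences lay outside the lists, and these genes were picked after their values were seen. Mfsd2a, a lysophospholipid transporter, stood at 9.92, 7.53 and 7.64 against 11.39, 11.62 and 10.41 (-2.78 ± 0.71). Acot3, a peroxisomal acyl-CoA thioesterase, stood at 6.56, 6.48 and 6.48 against 8.90, 8.36 and 8.15 (-1.96 ± 0.19). Both were lower on every dawn array, but ZT22 was far above the other dawn arrays for Mfsd2a and level with them for Acot3, which passed without ZT18 (-2.12, adjusted p = 0.0290). Nrg4, a growth factor of the EGF family, stood at 7.08, 7.03 and 7.14 against 9.13, 9.08 and 7.98 (-1.65 ± 0.31), and at -2.02 without ZT18 (adjusted p = 0.00277). Lipg, endothelial lipase, was lower at dawn by a like amount (-1.72 ± 0.37).

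On the dawn side Loxl4, of the lysyl oxidase family, stood at 8.09, 8.33 and 8.71 against 5.79, 6.29 and 7.03 (2.00 ± 0.33), with a further probe set at 2.10. Clpx, a subunit of the mitochondrial Clp protease, stood at 11.07, 11.03 and 11.09 against 8.86, 9.38 and 10.49 (1.48 ± 0.40). Cldn1, a tight junction protein, stood at 12.20, 12.33 and 12.42 against 10.57, 10.71 and 12.01 (1.22 ± 0.38). All of these dusk sides climbed from ZT10 to ZT18. Rsad2, an interferon-induced gene, was higher on each dawn array by 1.34 ± 0.45. The serum amyloid gene Saa2 was also higher on each dawn array, but it was higher at ZT06 (10.46) than on any of the 6 arrays.

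The hours at which the sides parted were uneven. Of the 139 dawn-high genes that were apart, 84 were highest at ZT26, 44 at ZT02 and 11 at ZT22, and 87 were lowest at ZT14, 49 at ZT10 and 3 at ZT18. Of the 122 dusk-high genes, 63 were highest at ZT14, 53 at ZT10 and 6 at ZT18, and 79 were lowest at ZT02, 35 at ZT26 and 8 at ZT22. ZT18 and ZT22, the arrays of the middle and the end of the night, were thus seldom the extremes of their sides. The genes were chosen for sides that do not overlap, and ZT18 and ZT22 are the closest arrays across the sides. That choice by itself makes extremes at these arrays less likely. ZT02 and ZT26 also share a clock hour, and the same counts over all tested genes are not given here. The differences between arrays 12 h apart, ZT22 minus ZT10 and ZT02 minus ZT14, had the same sign in 51% of all tested genes.

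ZT06, left out of the comparison, was set on a scale on which 0 is the dusk mean and 1 the dawn mean of a gene. Its median position was 0.68 for the dawn-high genes that were apart (quartiles 0.49 and 0.85) and 0.83 for the dusk-high ones (0.63 and 1.09). It lay nearer the dawn mean for 101 of 139 and for 102 of 122, against 57.1% of all tested genes. Arntl and Dbp were among the exceptions, at positions 0.27 and 0.11, since Arntl had dropped to 7.37 and Dbp had climbed to 9.32 by ZT06. Wee1 and Per2, at 1.04 and 1.05, were still at their dawn level. Ppard lay beyond the dusk mean at -0.53, with 8.04 at ZT06.

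**Figure D5:**
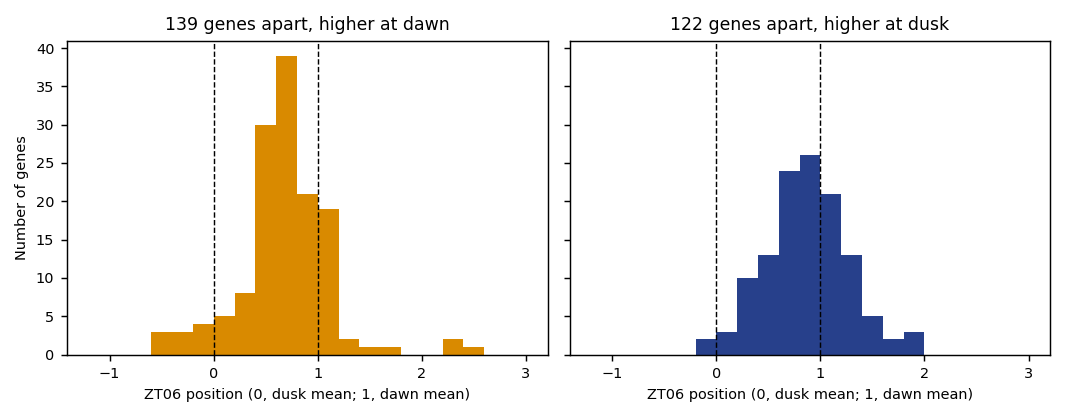
Position of the ZT06 array between the dusk mean (0) and the dawn mean (1) of each gene (x axis, no unit; y axis, number of genes) for the 139 dawn-high and the 122 dusk-high genes whose sides did not overlap and differed by at least 0.5 (log2). Dashed lines mark both means, and in both panels most genes lie nearer 1, with medians of 0.68 and 0.83.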

How the data were processed

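Total RNA from 5 perfused livers per time point was pooled and hybridised to 1 Affymetrix Mouse Gene 1.0 ST array, giving 7 arrays. The authors deposited log2 signals. The submitters' processing notes name RMA and the software Affymetrix Expression Console (version 1.1.2637.26569), so background correction, normalization between arrays and probe summary were done before deposit. RMA narrows small differences between arrays and low signals. Of 35556 probe sets, 21789 carry 1 gene symbol in the platform annotation, 1621 carry several and 12146 none. Array medians lay between 6.37 and 6.40, and precision is limited by the number of arrays. Sides were set by the array titles.

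Dawn and dusk means were compared by limma (version 3.58.1, R version 4.3.3), using lmFit and eBayes on 3 arrays against 3 with 4 residual degrees of freedom and Benjamini-Hochberg adjustment over 12076 probe sets with 1 symbol and a mean above 85 units, the expression minimum of the study's methods. The script was checked on simulated data. The probe set with the highest mean stands for a gene. Tables were handled in Python 3.11.15 with pandas 2.3.3. Scan times were not used here.

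The sides, the 40 lists (569 genes, 493 tested) and the tests were chosen with earlier results of these data known. The rule for named genes took all tested clock and clock output genes, up to 2 genes of every other list with the largest difference where none was called, and the 10 largest called genes per side, of which there were none. It named 93 genes. Other genes, those without overlap in a list and the widest differences, were named after their values were seen. Alternatives left out each array, averaged ZT02 and ZT26, centred or quantile normalized the arrays again, subtracted 43 units with a floor of 10 units, let the prior follow the level, and changed the minimum level or the probe set of a gene. Some list members were not analysed here.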

Additional observations from a re-analysis of the deposited data

How the results depend on the processing

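With ZT18 left out the number of probe sets at an adjusted p under 0.05 in limma was 143, and it was 0 under every other alternative run. Leaving out 1 array gave 797 to 2031 probe sets at an unadjusted p under 0.05, 1172 to 1938 without overlap higher at dawn and 1211 to 1947 higher at dusk, and 103 to 369 apart at dawn and 121 to 245 at dusk. Sides of fewer arrays overlap less by construction. With ZT02 and ZT26 averaged into 1 array, the counts were 915 at an unadjusted p under 0.05 and 1598 and 1516 without overlap. With 1 array left out the list medians ran from 0.078 to 0.11 for proteasome subunits, 0.029 to 0.097 for glycogen metabolism, -0.53 to -0.067 for heat shock chaperones, -0.28 to -0.20 for triglyceride genes, -1.54 to -0.89 for clock repressors, -0.16 to 0.0099 for gluconeogenesis, -0.079 to -0.022 for iron and haem and 0.40 to 0.67 for lymphocyte and antigen presentation markers. The last was 0.67 with 43 units subtracted and 0.69 at a minimum of 2 times 85 units, and bile duct markers had a median of 0.10 with no minimum level. The difference turned its sign for Nr1d1 (-0.39 without ZT02, -0.29 without ZT26, -0.91 without ZT18, -0.34 with ZT02 and ZT26 averaged, and up to 1.11 without ZT22), for Cry1 (-0.29 without ZT10 and -0.22 without ZT22, up to 0.55 without ZT18) and for Sdf2l1 (-0.13 without ZT10, up to 0.53 without ZT18), none of which was called. The cause was not tested. Without ZT18, 27 named genes passed an adjusted p of 0.05, and 1264 other values of named genes kept their direction and their side of the threshold. No paired analysis was possible, since each array holds 1 pool of livers collected at a single time point, with no second array. A slide or scan batch was not analysed here. The comparisons are limited by 1 pooled array per hour, and for Ciart and Arntl also by signals below 43 units on some arrays.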
